A study of Mus musculus with 5 samples.

Results

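Binding of REX1 and RNF12 was examined at the 8 mouse genes that write, maintain and remove DNA methylation: Dnmt1, Uhrf1, Dnmt3a, Dnmt3b, Dnmt3l, Tet1, Tet2 and Tet3. A peak was assigned to a gene when its summit, the position of highest signal, lay in the gene body or within 5 kb of it. For REX1, 110 of 96050 peaks met this rule. For RNF12 WT it was met by 67 of 97602, and for the H569A,C572A form by 61 of 98124. The 8 windows together cover 604 kb. At a −log10 q, the peak caller's adjusted p-value on a log scale, of at least 5 the counts were 54, 24 and 52, or 49.1%, 35.8% and 85.2% of the peaks at these genes. Of the complete lists, 54.9%, 44.7% and 83.5% passed this limit, and the shares at the 8 genes had the same order.

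The peaks come from chromatin immunoprecipitation and sequencing (ChIP-seq) with a V5 antibody in female mouse embryonic stem cells (mESCs) of the 129/Sv-Cast/Ei hybrid strain, with 1 library for each protein. REX1 carried a FLAG-V5 tag in cells that were WT otherwise. RNF12 WT and RNF12 H569A,C572A carried the same tag and were expressed in Rlim+/- cells, which have 1 functional copy of the gene for RNF12. The RNF12 transgenes were driven by the CAG promoter of the expression vector and were kept by puromycin selection. RNF12 is an E3 ubiquitin ligase that marks the zinc finger protein REX1 for degradation, and the H569A,C572A form lacks catalytic activity. The RNF12 cells were treated with the proteasome inhibitor MG132 at 15 µM for 3 h before cross-linking with 2 mM disuccinimidyl glutarate and 1% formaldehyde. The study describes REX1 binding as taken from earlier work, whereas the sample labels name a V5-tagged REX1, and these statements were not reconciled. The control libraries, which came from WT cells without a tagged protein, were not analysed here. Their titles call them input, and whether they are input chromatin or a V5 immunoprecipitation was not settled. Peak lists hold no expression values, so the identity of the cells was not checked against marker genes. With 1 library per list there is no replicate, and all counts, ranks and shares below describe these libraries without a test between them.

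Methylation of cytosine in CpG dinucleotides is copied after replication by DNMT1, which UHRF1 brings to hemimethylated DNA. DNMT3A and DNMT3B place methyl groups on unmethylated DNA, and DNMT3L, which has no activity of its own, stimulates them. TET1, TET2 and TET3 oxidise 5-methylcytosine and so start its removal. Pluripotent cells express much of this set, and levels of methylation in mESCs depend on the balance of these enzymes.

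The strongest peak at each gene is shown first, because the ranks below refer to these sites. Strength is given as the percentile of a peak's fold enrichment among all peaks of its own list, since fold enrichments were compared only within a list. Each sequence is the plus strand of GRCm38 (mm10) within 50 bp of the summit, shortened to 30 bases where an annotated UTR was met. A shortened stretch with a motif is placed around the motif, so it need not contain the summit. Capitals mark the REX1 motif, searched as ATGGCGAC, ATGGCGCC, ATGGCGGC, ATGGCTAC, ATGGCTCC and ATGGCTGC on both strands. On the plus strand a minus-strand match appears as its reverse complement.
Dnmt1, REX1, chr9:20943558-20943658: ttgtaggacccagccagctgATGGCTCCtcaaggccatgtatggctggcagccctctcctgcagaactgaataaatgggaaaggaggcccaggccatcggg
Uhrf1, RNF12 WT, chr17:56305981-56306081: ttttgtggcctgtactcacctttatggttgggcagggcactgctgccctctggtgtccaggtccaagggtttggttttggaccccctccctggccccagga
Dnmt3a, REX1, chr12:3846174-3846274: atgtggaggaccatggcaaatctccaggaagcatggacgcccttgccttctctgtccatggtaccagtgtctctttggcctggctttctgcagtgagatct
Dnmt3b, RNF12 H569A,C572A, chr2:153649506-153649535: agccgcagcccgcgtggacgctctcgcctg
Dnmt3l, RNF12 WT, chr10:78043546-78043575: cggcgccccctgctggcccacgcgcgcttg
Tet1, REX1, chr10:62865217-62865246: aagcccacgagGTAGCCATcttgcctgctt
Tet2, REX1, chr3:133544261-133544290: aatcctacaggGCAGCCATcttgcttcctt
Tet3, RNF12 WT, chr6:83368826-83368926: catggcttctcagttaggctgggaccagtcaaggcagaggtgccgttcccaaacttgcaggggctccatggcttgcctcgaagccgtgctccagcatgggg
Of these 8 sites, those of Dnmt1, Tet1 and Tet2 hold a REX1 motif, and all 3 were the strongest in the REX1 list.

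All 8 genes had at least 1 peak in each list, by a rule that 79% of the 21755 protein-coding genes met in the REX1 list, 79.9% in the RNF12 WT list and 81.3% in the RNF12 H569A,C572A list. All 8 also had a summit within 1 kb of an annotated transcript start in each list, against 67.5%, 68.9% and 67.7% of protein-coding genes. In all 3 lists at once, 60.7% of protein-coding genes had such a summit. At a −log10 q of at least 5, passed by 54.9%, 44.7% and 83.5% of the lists, 7, 8 and 8 of the genes had a peak. A summit within 1 kb of a start was then left at 6, 7 and 7. The 8 genes have between 5 and 18 annotated start sites each, whereas the median protein-coding gene has 3. When only the 5′ end of the gene body counted as the start, 3 genes had a REX1 summit within 1 kb, 6 an RNF12 WT summit and 4 an RNF12 H569A,C572A summit. The corresponding shares of protein-coding genes were 61.9%, 63.4% and 62.5%. Counts near starts at these genes therefore rest in part on internal start sites.

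**Figure D1:**
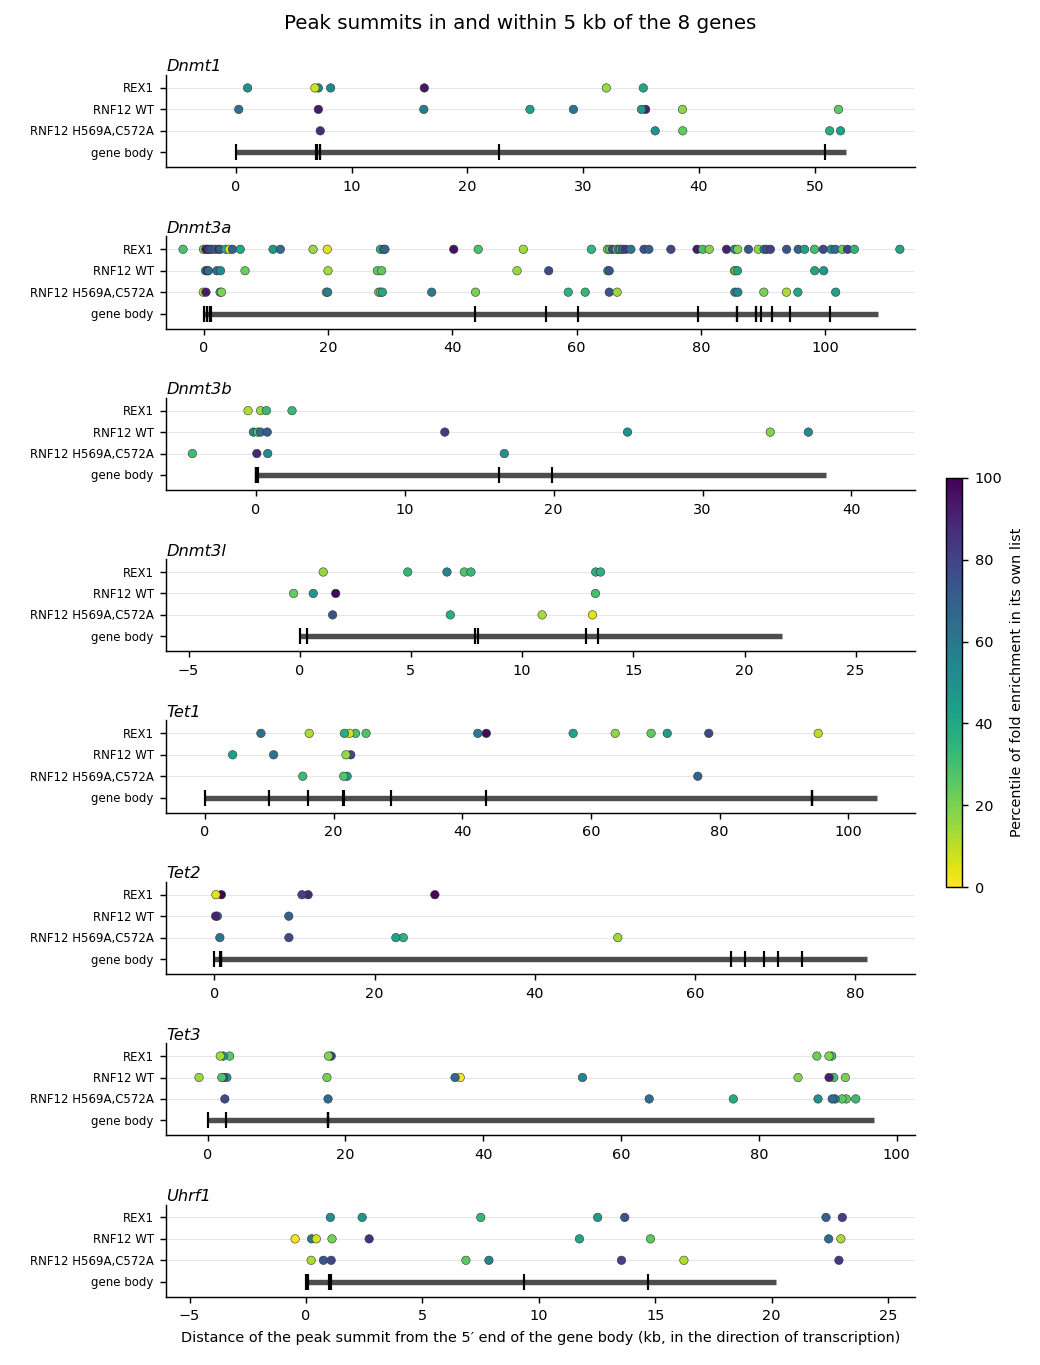
Position of each peak summit along the 8 genes, in kb from the 5′ end of the gene body in the direction of transcription, with 1 row per list and the gene body (grey bar, black ticks at annotated start sites) below. Colour gives the percentile of fold enrichment in the peak's own list; Dnmt3a carries 58 REX1 summits along its whole length, whereas the 4 REX1 summits of Dnmt3b all lie within 2436 bp of its 5′ end.

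Most of the 238 peaks lay in introns. Introns held 78 REX1 summits, 45 RNF12 WT summits and 39 of the H569A,C572A form, which is 70.9%, 67.2% and 63.9% of the member peaks. In the windows of all protein-coding genes, 43.0%, 39.8% and 41.4% of summits were intronic. Coding exons held 11.8%, 10.4% and 13.1%, against 13.4%, 18.9% and 16.6%. Summits within 1 kb of a start of the gene numbered 42, 31 and 23, or 38.2%, 46.3% and 37.7%, against 38.8%, 39.5% and 38.3%. The windows of the 8 genes span 30.2 to 118 kb, against a median of 27.4 kb for protein-coding genes, and the part of length in these shares was not tested. These start-proximal summits were richer in CpG, with a median of 4, 7 and 7 CpG dinucleotides within 50 bp of the summit, than the remaining summits, with 2, 3 and 5. The peaks were of middling strength, and the median percentile was 45.7 in the REX1 list, 47.2 in that of RNF12 WT and 42.3 in that of RNF12 H569A,C572A. At or above the 90th percentile, which by construction holds 10% of each list, were 9 REX1, 5 RNF12 WT and 1 RNF12 H569A,C572A peak.

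Peaks were unequally spread over chromosomes, and this touches 3 of the genes. Over all of chromosomes 1 to 19 and X there were 1.02 RNF12 WT peaks per REX1 peak. On chromosome 12, which carries Dnmt3a, there were 2289 RNF12 WT and 5892 REX1 peaks, a ratio of 0.388. On chromosome 10, which carries Dnmt3l and Tet1, the ratio was 0.674, and on each of the other chromosomes it was between 0.999 and 1.18. For RNF12 H569A,C572A there were 1.01 peaks per REX1 peak over all these chromosomes, 0.730 on chromosome 12 and 1.03 on chromosome 10, with 0.870 to 1.65 on the others. The low ratio on chromosome 10 was thus seen for RNF12 WT and not for RNF12 H569A,C572A, whereas Tet1 had 4 peaks in each RNF12 list against 14 of REX1. The part of these chromosome differences in the counts at Dnmt3a, Dnmt3l and Tet1 was not tested.

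**Figure D2:**
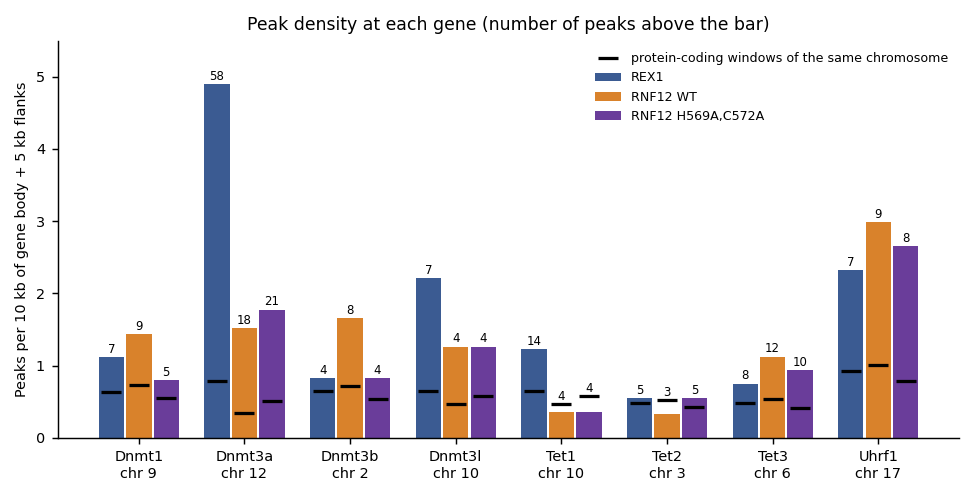
Peaks per 10 kb of gene body and 5 kb flanks at each gene and list (bars, with the number of peaks above), beside the same density pooled over the protein-coding windows of the gene's chromosome (black lines). Dnmt3a reaches 4.90 REX1 peaks per 10 kb against 0.782 on chromosome 12, and Tet1 has 0.35 RNF12 WT peaks per 10 kb, below the 0.465 of chromosome 10.

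Dnmt1, the maintenance methyltransferase (chr9:20907209-20959888, minus strand), had 7 REX1, 9 RNF12 WT and 5 RNF12 H569A,C572A peaks. Its single locus with peaks in all 3 lists, chr9:20952468-20953143, lay at internal transcript starts, 7291 bp inside the gene body at the RNF12 H569A,C572A summit. There the RNF12 WT peak was 676 bp wide, with a fold enrichment of 6.84 and a percentile of 92.1. The RNF12 H569A,C572A peak at this locus was 599 bp wide, with a fold enrichment of 14.1 and a percentile of 86.9, and its summit lay 8 bp from a start. REX1 had a pair of narrower peaks in the same stretch, at percentiles of 54.2 and 7.79. This was thus the strongest Dnmt1 site in both RNF12 lists and a middling one for REX1. The strongest REX1 peak, chr9:20943511-20943823, was in an intron, with a fold enrichment of 8.61 and a percentile of 94.5. It overlapped an RNF12 WT peak at a percentile of 59.1 but no RNF12 H569A,C572A peak. Near the 5′ end of the gene body, RNF12 WT had a peak at a percentile of 62.9, chr9:20959581-20959682, and the nearest REX1 summit was 1011 bp away. The nearest RNF12 H569A,C572A summit was the one 7291 bp inside the body.

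Uhrf1, which recognises hemimethylated CpG and recruits DNMT1 (chr17:56303321-56323486, plus strand), had 7 REX1, 9 RNF12 WT and 8 RNF12 H569A,C572A peaks in a window of 30.2 kb. At a −log10 q of at least 5 (54.9%, 44.7% and 83.5% of the lists) these were 5, 3 and 7. Its density was 2.32, 2.98 and 2.65 peaks per 10 kb, against 0.927, 1.01 and 0.791 for protein-coding windows of chromosome 17. Among all protein-coding genes these densities stood at percentiles of 84.9, 88.3 and 91.6. All 3 lists had a peak at neighbouring Uhrf1 starts in chr17:56304195-56304628, at percentiles of 50.6, 21.4 and 78.9. The REX1 summit lay 17 bp from one start, and the RNF12 WT and RNF12 H569A,C572A summits 28 and 8 bp from the next. RNF12 WT and RNF12 H569A,C572A also shared peaks at the earlier starts of the gene, where REX1 had none. The other locus of all 3 lists, chr17:56325864-56326447, was downstream of Uhrf1 at the start of Kdm4b, a histone lysine demethylase gene. It held the strongest REX1 peak of the window (percentile 81.6, 265 bp from the Kdm4b start) and the strongest RNF12 H569A,C572A peak (83.9, 119 bp). These peaks were assigned to Uhrf1 by distance and lie closer to Kdm4b. The strongest RNF12 WT peak, chr17:56305911-56306104, was in an intron of Uhrf1 at a percentile of 85.8 and overlapped no peak of the other lists.

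Dnmt3a, a de novo methyltransferase (chr12:3806007-3914443, plus strand), held 97 of the 238 peaks. It had 58 REX1, 18 RNF12 WT and 21 RNF12 H569A,C572A peaks. By number of REX1 peaks it ranked 8 of 21755 protein-coding genes and 1 of the 643 on chromosome 12. By REX1 peaks per length it ranked 473 of all genes, a percentile of 97.8, and 24 on its chromosome. The density was 4.90 REX1 peaks per 10 kb against 0.782 for the chromosome, 1.52 RNF12 WT peaks against 0.340, and 1.77 RNF12 H569A,C572A peaks against 0.514. In each list Dnmt3a was therefore above the pooled density of its chromosome. By RNF12 peaks per length it ranked 6206 of all genes for RNF12 WT (percentile 71.5) and 3628 for RNF12 H569A,C572A (83.3), below its rank for REX1. At a −log10 q of at least 5, which 54.9%, 44.7% and 83.5% of the lists passed, 32 REX1, 4 RNF12 WT and 18 RNF12 H569A,C572A peaks were left.

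The 5′ region of Dnmt3a was covered in all 3 lists. In chr12:3806152-3808484 there were 6 REX1 peaks, 4 RNF12 WT peaks and a single RNF12 H569A,C572A peak. The RNF12 H569A,C572A peak was 2149 bp wide, with a fold enrichment of 17.1 and a percentile of 92.2, the highest among the 61 peaks of that list. The strongest REX1 peaks there, chr12:3806152-3806461 and chr12:3806551-3806744, had fold enrichments of 8.37 and 7.96 and percentiles of 94.0 and 92.9. The strongest RNF12 WT peak, chr12:3806529-3806630, had a fold enrichment of 6.46 and a percentile of 88.9, with its summit 54 bp from a start in an annotated UTR exon. This was the locus at which all 3 lists ranked highest together. REX1 and RNF12 H569A,C572A also overlapped just upstream, with summits 33 and 69 bp before the 5′ end and percentiles of 19.3 and 12.8, and RNF12 WT had no peak there. A further group of starts, 85430 bp inside the body at the RNF12 H569A,C572A summit, also had peaks in all 3 lists. At chr12:3891313-3891668 the best percentiles were 51.3 (REX1), 17.9 (RNF12 WT) and 57 in the RNF12 H569A,C572A list. At chr12:3891803-3892137 they were 19.3, 41.4 and 54.3.

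The remaining Dnmt3a peaks were mostly REX1 peaks in introns. Of its 64 loci, 37 held REX1 alone, 4 RNF12 WT alone and 6 RNF12 H569A,C572A alone. The strongest REX1 peak of the gene, chr12:3846129-3846383, was of this kind, with a fold enrichment of 9.44 and a percentile of 96.1, in an intron 3411 bp from the nearest Dnmt3a start. A further REX1 peak at chr12:3884977-3885428, 98 bp from an internal start, had a fold enrichment of 7.94 and a percentile of 92.8 and overlapped no RNF12 peak. Loci of all 3 lists more than 1 kb from a start were found at chr12:3808561-3809068, chr12:3825873-3826046 and chr12:3871171-3871363. At the last of these the percentiles were 28 (REX1), 75.3 (RNF12 WT) and 75 in the RNF12 H569A,C572A list.

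Dnmt3b, the other de novo methyltransferase (chr2:153649450-153687730, plus strand), had 4 REX1, 8 RNF12 WT and 4 RNF12 H569A,C572A peaks. RNF12 H569A,C572A had a peak of 491 bp at the 5′ end, chr2:153649288-153649778, with a fold enrichment of 15.1 and a percentile of 89.1. Its summit was 71 bp from the 5′ end of the body, in an annotated UTR exon. RNF12 WT had 3 narrow peaks in the same locus, chr2:153649166-153650072, at percentiles of 56.3, 26.6 and 65.7. REX1 had 1 peak there, at a percentile of 15.9. All REX1 peaks at Dnmt3b were weak, with none above a percentile of 32.9 and none at a −log10 q of 5 or more. A neighbouring locus, chr2:153650113-153650346, also had peaks in all 3 lists, at percentiles of 32.9, 71.4 and 52.1. It lies near a start of the antisense gene Dnmt3bos, and ChIP peaks carry no strand, so they cannot be given to one gene or the other. The strongest RNF12 WT peak, chr2:153662008-153662185, was in a coding exon, with a fold enrichment of 6.01 and a percentile of 83.5, and overlapped no peak of the other lists.

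Dnmt3l, the gene of the inactive cofactor (chr10:78041947-78063622, plus strand), had 7 REX1, 4 RNF12 WT and 4 RNF12 H569A,C572A peaks. Its strongest RNF12 peaks lay at the start of Aire, a neighbouring gene whose annotated body overlaps this one. The RNF12 WT peak, chr10:78043398-78043629, had a fold enrichment of 8.84 and a percentile of 98.6, the highest among the 67 peaks of that list, with its summit 11 bp from the Aire start. The RNF12 H569A,C572A peak, chr10:78043336-78043597, had a fold enrichment of 10.2 and a percentile of 75, with its summit 150 bp from that start. These peaks overlapped each other and no REX1 peak. The locus of all 3 lists, chr10:78055090-78055337, was at an internal Dnmt3l start, and every list was weak there, with percentiles of 37.1, 30.0 and 4.53. REX1 had a second peak beyond that start, at a percentile of 35.7, and its strongest peak, chr10:78048454-78048649, reached 55.6. No peak at a start of Dnmt3l itself exceeded a percentile of 47.2 in any list.

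Tet1, a 5-methylcytosine dioxygenase (chr10:62804570-62908996, minus strand), had 14 REX1 peaks but 4 RNF12 WT and 4 RNF12 H569A,C572A peaks. At a −log10 q of at least 5 (54.9%, 44.7% and 83.5% of the lists) these were 6, 1 and 4. The density was 1.22 REX1 peaks per 10 kb against 0.650 on chromosome 10. For RNF12 WT it was 0.35 against 0.465, and for RNF12 H569A,C572A 0.35 against 0.577. Tet1 was thus above the pooled value of its chromosome for REX1 and below it in both RNF12 lists. Among all protein-coding genes its densities stood at percentiles of 67.5, 33.2 and 34.9. The strongest REX1 peak, chr10:62865178-62865714, had a fold enrichment of 12, a −log10 q of 29.0 and a percentile of 98.3. Its summit lay 50 bp from the start of an internal non-coding transcript, 43742 bp inside the body, and no RNF12 peak overlapped it. The locus of all 3 lists, chr10:62886788-62887536, was at the start used by the RefSeq transcript, with percentiles of 38.2 (REX1), 15.9 (RNF12 WT) and 44.2 in the RNF12 H569A,C572A list. The REX1 summit there was 6 bp from the start. The REX1 and RNF12 WT peaks of this locus did not overlap each other and were joined by an RNF12 H569A,C572A peak. At the 5′ end of the annotated body no list had a summit within 1 kb, and the nearest were 8696 bp (REX1), 4298 bp (RNF12 WT) and 11607 bp (RNF12 H569A,C572A) away.

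Tet2, which acts on the same substrate (chr3:133463679-133545139, minus strand), held the strongest REX1 peak of the whole set. It had 5 REX1, 3 RNF12 WT and 5 RNF12 H569A,C572A peaks, where the median protein-coding gene had 3, 3 and 2. The density was 0.547, 0.328 and 0.547 peaks per 10 kb, against 0.482, 0.515 and 0.426 on chromosome 3. Among all protein-coding genes these densities stood at percentiles of 44.4, 32.0 and 47.3. The REX1 peak, chr3:133544175-133544411, had a fold enrichment of 18.1, a −log10 q of 60.5 and a percentile of 99.7, and ranked 337 in its list. Its summit lay 10 bp from a Tet2 start, in an annotated UTR exon. Both RNF12 lists had peaks next to it. RNF12 WT had chr3:133544704-133544853 (percentile 64.7) and chr3:133544924-133545088 (fold enrichment 6.65, percentile 90.3), neither of which overlapped the strong REX1 peak. Both lie slightly closer to the start of the neighbouring gene Gm42567 than to a Tet2 start, from which their summits are 367 and 143 bp away. RNF12 H569A,C572A had 1 peak of 734 bp, chr3:133544354-133545087 (percentile 61.1), which overlapped it at its edge, with its summit 78 bp from a start. A weak REX1 peak at a percentile of 4.76 overlapped the second RNF12 WT peak. The 3 lists therefore met in the same stretch, near starts of both genes, with their summits at different positions. REX1 had a further strong peak in an intron, chr3:133517448-133517720, with a fold enrichment of 13.1 and a percentile of 98.7, which no RNF12 peak overlapped and which is named here after its values were seen. RNF12 WT and RNF12 H569A,C572A shared an intronic site at chr3:133535769-133535942, at percentiles of 70.2 and 78.4, where REX1 had none.

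Tet3, the third dioxygenase (chr6:83362373-83459084, minus strand), had 8 REX1, 12 RNF12 WT and 10 RNF12 H569A,C572A peaks, and 3 loci of all 3 lists. At a −log10 q of at least 5 (54.9%, 44.7% and 83.5% of the lists) these counts were 2, 3 and 9. The widest, chr6:83455876-83457152, surrounded an internal start. RNF12 H569A,C572A had a peak of 1251 bp there with a fold enrichment of 10.8 and a percentile of 77.4, its summit 212 bp from the start. RNF12 WT had 3 peaks in this locus, the best at a percentile of 73.5, and REX1 had 2, the better at 46.6. At further internal starts, chr6:83441435-83441891, the percentiles were 19.3 (REX1), 21.4 (RNF12 WT) and 65.7 in the RNF12 H569A,C572A list, in which the summit was 12 bp from one of them. The antisense gene B230319C09Rik starts in this stretch too. The strongest REX1 peak, chr6:83441084-83441356, lay beside it at a percentile of 81.9 and overlapped no RNF12 peak. The remaining shared locus, chr6:83367966-83368548, was 73143 bp or more from any Tet3 start, in coding and UTR exons towards the 3′ end, with percentiles of 31.7, 30.0 and 66.8. The strongest RNF12 WT peak, chr6:83368831-83368946, was also in a coding exon there, with a fold enrichment of 6.76 and a percentile of 91.7, and overlapped a REX1 peak at a percentile of 19.3.

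**Figure D3:**
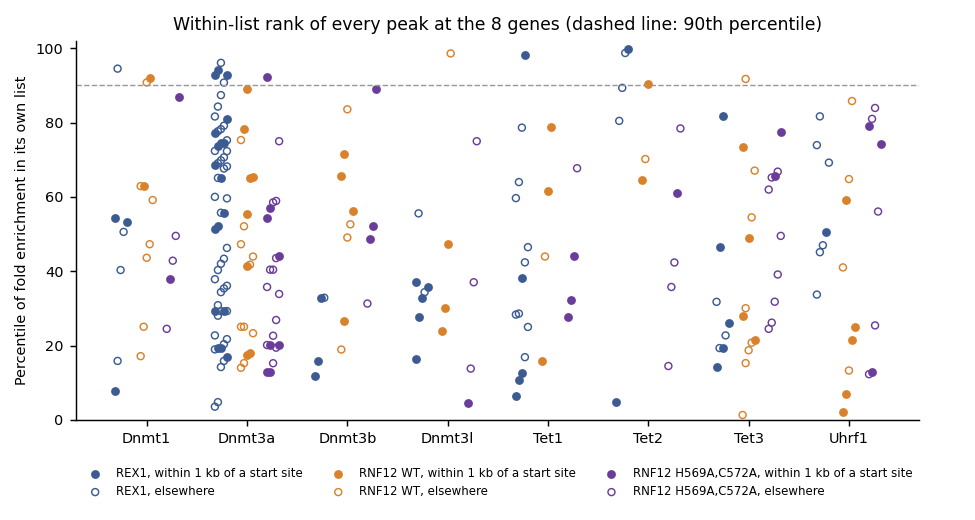
Percentile of fold enrichment in its own list for every peak at the 8 genes, coloured by list, with filled points within 1 kb of a start site of the gene and open points elsewhere; the dashed line is the 90th percentile. A pair of REX1 peaks at Tet2 (99.7 and 98.7), the RNF12 WT peak in the Dnmt3l window (98.6) and a REX1 peak at Tet1 (98.3) stand highest, and no REX1 peak at Dnmt3b exceeds 32.9.

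When overlapping peaks of any list were merged, the 238 peaks formed 162 loci. Peaks of all 3 lists were present at 17 loci, of 2 lists at 22 and of 1 list at 123. Over chromosomes 1 to 19 and X, 13.0% of loci held all 3 lists, 15.6% held 2 and 71.4% held 1, where the 8 genes had 75.9% with 1 list and 13.6% with 2. Each of the 8 genes had at least 1 locus of all 3 lists, as did 65.6% of protein-coding genes, and Dnmt3a had 6 of the 17. REX1 alone was present at 70 loci, of which 37 were at Dnmt3a and 13 at Tet1. RNF12 WT alone was present at 28 and RNF12 H569A,C572A alone at 25. As shares of the 162 loci these are 43.2%, 17.3% and 15.4%, against 25.7%, 20.2% and 25.5% of all loci. Merging can join peaks that do not overlap each other directly, as at Tet1 and Tet2.

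**Figure D4:**
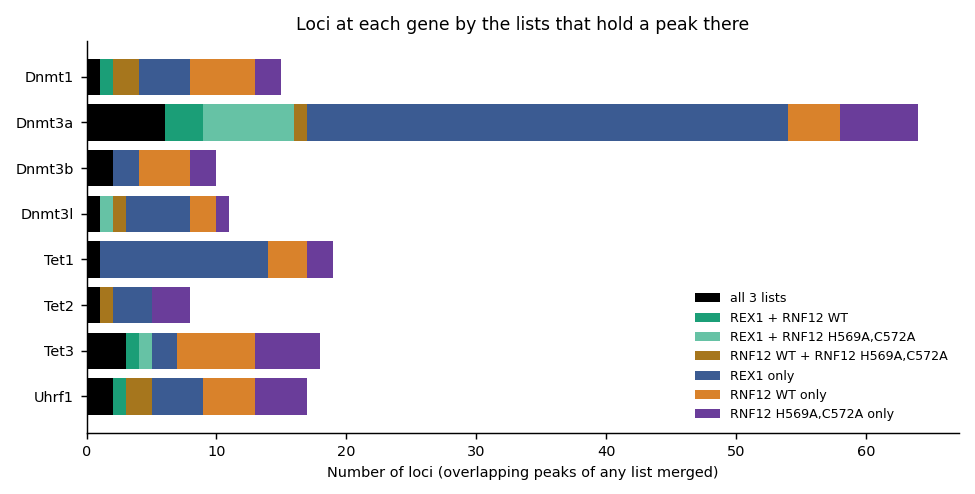
Number of loci at each gene, split by the lists that hold a peak there. Dnmt3a (37 loci) and Tet1 (13 loci) are mostly made up of REX1 peaks without an RNF12 partner, whereas Dnmt1, Tet3 and Uhrf1 are more evenly split.

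Overlap was next counted peak by peak, at 1 bp or more, with 95% Wilson intervals that cover counting error only. An RNF12 WT partner was found for 24 of 110 REX1 peaks (21.8%, interval 15.1% to 30.4%), against 39.5% in the complete list. With RNF12 H569A,C572A, 33 (30.0%, 22.2% to 39.1%) did, against 40.7%. Among 67 RNF12 WT peaks, a REX1 partner was found for 25 (37.3%, 26.7% to 49.3%), against 41.2%, and an RNF12 H569A,C572A partner for 33 (49.3%, 37.7% to 60.9%), against 51.9%. Among 61 RNF12 H569A,C572A peaks, a REX1 partner was found for 27 (44.3%, 32.5% to 56.7%), against 34.2%, and an RNF12 WT partner for 25 (41.0%, 29.5% to 53.5%), against 42.6%. Peaks of 1 gene are not independent of each other, which these intervals leave out. The shares of REX1 peaks with either RNF12 partner lay below those of the whole list, and the list-wide value was outside the interval in both cases. For the RNF12 lists, the whole-list share was inside the interval in every case when all 8 genes were counted.

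Since Dnmt3a held 58 of the 110 REX1 peaks, the shares were also taken at this gene alone and without it, a split chosen after the data had been seen. At Dnmt3a, 11 of 58 REX1 peaks (19%) overlapped RNF12 WT, and the share over all 5892 REX1 peaks of chromosome 12 was 21.5%. With RNF12 H569A,C572A it was 18 of 58 (31.0%), and 32.0% over the chromosome. Both values at Dnmt3a thus stood near those of chromosome 12. In the opposite direction, REX1 peaks at Dnmt3a were met by 13 of 18 from RNF12 WT (72.2%) and by 14 of 21 from the H569A,C572A form (66.7%), where the chromosome gave 63.4% and 37.3%. Without Dnmt3a, 25.0% of the 52 REX1 peaks had an RNF12 WT partner (interval 15.2% to 38.2%), against 39.5% of the list. Of these 52 peaks, 14 were at Tet1 and had 0 RNF12 WT partners, so the share rests in part on that gene. A further 7 were at Dnmt3l, also on chromosome 10. With RNF12 H569A,C572A the share was 28.8% (18.3% to 42.3%), against 40.7% of the list. Among the remaining 49 RNF12 WT peaks, 24.5% (14.6% to 38.1%) had a REX1 partner, against 41.2% of the list. For the remaining 40 RNF12 H569A,C572A peaks the share with REX1 was 32.5% (20.1% to 48.0%), near the 34.2% of the list. Leaving out Dnmt3a thus lowered the value for RNF12 WT with REX1 from 37.3% to 24.5%, and the list value then lay outside the interval. For RNF12 H569A,C572A with REX1 it fell from 44.3% to 32.5%, and the list value lay inside both intervals. The value for REX1 with RNF12 H569A,C572A moved little, from 30.0% to 28.8%. Its interval, wider with 52 peaks, then included the 40.7% of the list. Tet1 stood at the low end, where of 14 REX1 peaks 0 had an RNF12 WT partner and 1 had an RNF12 H569A,C572A partner. Over chromosome 10 as a whole the shares were 31.6% and 40.8%.

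**Figure D5:**
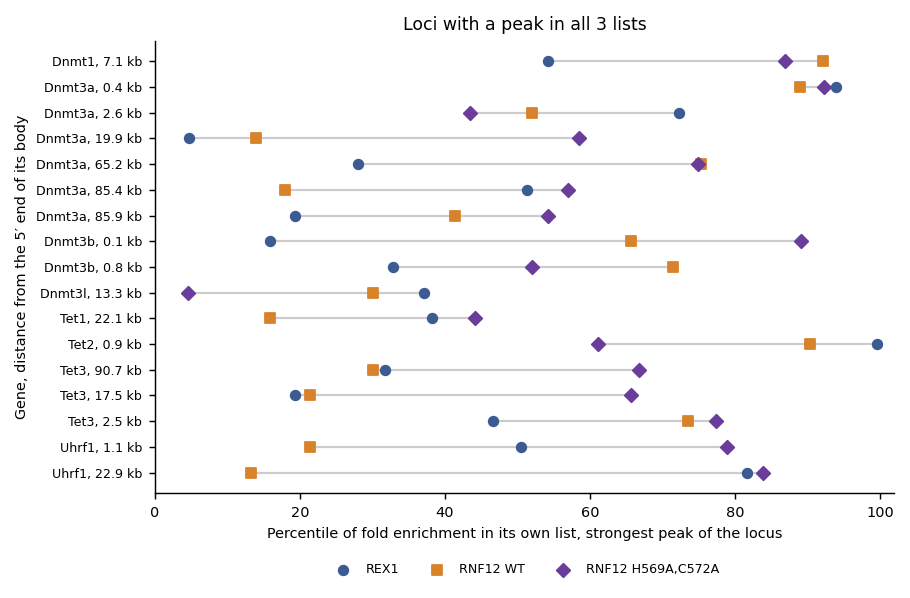
The 17 loci with peaks in all 3 lists, named by gene and by the distance of the strongest summit from the 5′ end of the gene body, with the percentile of the strongest peak of each list. The lists stand close together at the Dnmt3a 5′ region (94.0, 88.9 and 92.2) and far apart at the Dnmt3b 5′ end (15.9, 65.7 and 89.1).

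Among the 17 shared loci the order of the lists varied, and RNF12 H569A,C572A ranked highest at most of them. These included the 5′ end of Dnmt3b (89.1) and the start-site loci of Uhrf1 (78.9) and Tet3 (77.4 and 65.7). RNF12 WT ranked highest at the Dnmt1 locus (92.1), among others. REX1 did so at the Tet2 start (99.7), the Dnmt3a 5′ region (94.0) and the Dnmt3l locus (37.1), among others. Each value is the strongest peak of a list, and the lists differ in their number of peaks per locus. The best percentile of all 3 lists was above 50 at the Dnmt1 locus, at the Dnmt3a 5′ region and at the Tet2 start. At Tet2 this rests on merging, since the strong REX1 peak overlapped no RNF12 WT peak. The REX1 peak that did was at a percentile of 4.76. A rank within a list depends on all other peaks of that list, so these orders are not differences in binding.

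The REX1 motif was searched within 50 bp of every summit. It was present at 12 of 110 REX1 summits (10.9%, interval 6.35% to 18.1%), against 12.8% over the REX1 list. For RNF12 WT it was present at 2 of 67 (2.99%, 0.822% to 10.2%), against 4.68%, and for RNF12 H569A,C572A at 2 of 61 (3.28%, 0.904% to 11.2%), against 3.59%. Each member share was near the share of its list. Of the 12 REX1 summits, 5 were at Dnmt3a, 5 at Tet1, 1 at Dnmt1 and 1 at Tet2. The motif read from the study's logo for RNF12, searched with up to 1 mismatch, was at none of the 110, 67 and 61 summits. Over the lists it was at 3.12%, 4.48% and 5.25% of summits, and a count of 0 allows up to 3.37%, 5.42% and 5.92% by the Wilson interval. No match within 50 bp says only that these letters are not in the window.

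The other REX1 motif sites are given below, as they show how the match varies in strand and, in the windows that were not shortened, in position. Capitals again mark the motif.
Dnmt3a, REX1, chr12:3808363-3808463: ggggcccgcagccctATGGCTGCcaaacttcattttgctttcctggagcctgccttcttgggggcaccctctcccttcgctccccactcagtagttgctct
Dnmt3a, REX1, chr12:3818282-3818382: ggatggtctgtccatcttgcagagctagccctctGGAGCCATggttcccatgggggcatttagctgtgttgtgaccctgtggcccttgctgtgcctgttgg
Dnmt3a, REX1, chr12:3834396-3834496: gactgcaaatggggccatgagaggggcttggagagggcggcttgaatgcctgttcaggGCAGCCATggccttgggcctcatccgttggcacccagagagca
Dnmt3a, REX1, chr12:3857367-3857467: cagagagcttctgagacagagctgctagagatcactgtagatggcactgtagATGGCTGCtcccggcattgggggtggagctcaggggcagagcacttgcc
Dnmt3a, REX1, chr12:3873857-3873957: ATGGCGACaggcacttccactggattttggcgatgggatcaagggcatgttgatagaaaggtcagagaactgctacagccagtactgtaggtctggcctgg
Dnmt3a, RNF12 H569A,C572A, chr12:3825698-3825727: atggaacaaggATGGCGCCtgtgggcgctg
Tet1, REX1, chr10:62830617-62830717: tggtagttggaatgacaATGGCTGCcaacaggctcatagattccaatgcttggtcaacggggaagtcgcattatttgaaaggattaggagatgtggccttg
Tet1, REX1, chr10:62839584-62839684: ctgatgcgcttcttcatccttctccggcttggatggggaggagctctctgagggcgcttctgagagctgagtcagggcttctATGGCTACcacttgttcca
Tet1, REX1, chr10:62883904-62884004: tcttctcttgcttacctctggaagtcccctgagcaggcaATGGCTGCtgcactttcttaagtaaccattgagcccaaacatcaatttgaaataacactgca
Tet1, REX1, chr10:62885538-62885638: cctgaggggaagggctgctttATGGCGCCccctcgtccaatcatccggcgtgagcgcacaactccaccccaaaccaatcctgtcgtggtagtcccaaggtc
Tet3, RNF12 WT, chr6:83441725-83441825: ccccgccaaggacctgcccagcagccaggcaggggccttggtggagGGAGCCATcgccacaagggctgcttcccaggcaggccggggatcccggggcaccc
Uhrf1 window at Kdm4b, RNF12 WT, chr17:56326244-56326344: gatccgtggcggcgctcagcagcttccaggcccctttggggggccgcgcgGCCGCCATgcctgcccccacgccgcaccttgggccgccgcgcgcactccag
The Dnmt3a match in chr12:3834396-3834496 also lies in the window of an RNF12 H569A,C572A summit 25 bp away, so that this single match counts in both lists.

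In the strongest REX1 peaks of Tet1 and Tet2 the motif stands in a longer run of like letters. Both read AAGATGGC on the minus strand, the core bound by YY1, a zinc finger protein of the same family as REX1. These letters overlap the first 5 of the REX1 motif and were searched after the sequences had been seen. They were at 5 of 110 REX1 summits (4.55%, interval 1.96% to 10.2%), against 5.65% of the list. They were at 1 of 67 RNF12 WT summits, against 1.82%, and at 1 of 61 RNF12 H569A,C572A summits, against 1.7%. Among the 238 peaks, the REX1 motif and AAGATGGC were found together in these Tet1 and Tet2 peaks, which is 2 of 110 REX1 summits (1.82%), against 4.19% of the REX1 list. The other REX1 summits with AAGATGGC, at Dnmt3a, Dnmt3b and Tet3, had percentiles of 72.4, 11.8 and 22.7.

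Promoters were then read by RefSeq starts, which gave 15 promoters for the 8 genes, from 250 bases before to 50 after each start. A REX1 peak overlapped 11 of them, an RNF12 WT peak 8, and a peak of the H569A,C572A form 11. Over the 32851 RefSeq promoters these shares were 38.2%, 37.7% and 39.6%. All 3 lists overlapped 7 of the 15, against 28.5% of all promoters, and no list overlapped 3, against 52.2%. The 3 without a peak are 1 each of Dnmt1, Dnmt3l and Uhrf1, and promoters of 1 gene can share a peak. The REX1 motif was in 1 of the 15, that of Tet3, and in 7.14% of the 32851 RefSeq promoters. The Tet2 promoter by this definition, chr3:133544341-133544640, held no REX1 motif, and the match of the strong REX1 peak lies beyond it, downstream of that start.

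A list of 20 related genes, coding for readers of methylated DNA, repair enzymes and partners of the machinery, was counted by the same rule. REX1 had a peak at 19 of the 20 genes, RNF12 WT at 18 and RNF12 H569A,C572A at 19, and a summit within 1 kb of a start at 18 in each list. Over all protein-coding genes, the shares with a peak were 79%, 79.9% and 81.3%, and those with a summit near a start 67.5%, 68.9% and 67.7%. Without a peak were Ahcy for REX1, Dppa3 and Ogt for RNF12 WT, and Dppa3 for RNF12 H569A,C572A. The strongest REX1 peaks were at Usp7, coding for a deubiquitylase that binds UHRF1 and DNMT1 (fold enrichment 23.1, percentile 99.9), and at Zbtb38, coding for a methyl-CpG binding zinc finger protein (10.1, 96.9). The strongest RNF12 WT peaks were at Zbtb33, which codes for the methyl-CpG reader Kaiso (11.7, 99.8), and at Trim28, which codes for a corepressor (9.35, 99.1). For RNF12 H569A,C572A they were at Trim28 (27.3, 98.6) and Zbtb38 (23.6, 97.4). The peaks at Zbtb38, Zbtb33 and Trim28 had their summits within 425 bp of a start of the gene, whereas the Usp7 peak lay 13334 bp from one.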

How the data were processed

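The series holds 5 ChIP-seq samples, and peak lists are given for 3 of them, 1 library each of REX1 and of both forms of RNF12, while the control libraries were not analysed here. The authors trimmed reads with Trim Galore 0.6.7, aligned them with Bowtie2 2.5.0 to mm10 masked at sites that differ between the parental strains, separated alleles with SNPsplit and merged them with SAMtools 1.10. Peaks were called with MACS2 2.2.7.1, narrow, with default settings. The deposited values are, per peak, a fold enrichment (a ratio of signal to control at the summit), −log10 p and −log10 q, and a score, left unused here. The smallest deposited −log10 q is 1.31 in each list. The lists give no read totals, so the depth is unknown, and which control stands behind each list was not settled. Masking and allele merging can change which peaks pass in repeats and polymorphic sites.

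Peaks were assigned by summit to GENCODE release M21 gene bodies with 5 kb flanks. Sequence came from GRCm38 and promoters from the RefSeq table of that build, in which all 8 genes matched. Gene, placement, locus and sequence backgrounds use chromosomes 1 to 19 and X, and overlap backgrounds the complete lists. All coordinates are 1-based. The genes, the related list and the motif strings were chosen with earlier results of these data known. Named peaks are the strongest per gene and list, those within 1 kb of a start, loci of all 3 lists and sites with a REX1 motif. Beyond these, 1 further Tet2 REX1 peak was chosen after its values were seen. Of the related genes at most 6 are named, the strongest 2 per list. Counts and 95% Wilson intervals are descriptions, and no test was made. Alternatives to the −log10 q limit, flank, start definition, overlap, rank and motif window were run, and overlaps were also taken without Dnmt3a, added after seeing the data. The letters AAGATGGC were added after sequences had been seen. The RNF12 motif was read from a logo and carries that uncertainty. The work was run in Python 3.11.15 (scipy 1.17.1, pandas 2.3.3, numpy 2.4.6, matplotlib 3.10.9), and the overlap, window and motif steps were tested on simulated data.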

Additional observations from a re-analysis of the deposited data

How the results depend on the processing

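Of 66 alternative values of the counts and shares, 45 stayed within 1.5 times the reported count or inside the reported interval and 21 did not. At a −log10 q of at least 5 the number of peaks at the 8 genes was 54 (REX1), 24 (RNF12 WT) and 52 in the RNF12 H569A,C572A list, a limit passed by 54.9%, 44.7% and 83.5% of the complete lists. With only the 5′ end of the body as start, 3 genes had a REX1 and 4 an RNF12 H569A,C572A summit within 1 kb. Overlap shares are given with that of the complete list under the same rule in parentheses. With an overlap of 50% of both peaks, 10.9% (20.2%) of REX1 peaks had an RNF12 WT and 10.0% (17.7%) an RNF12 H569A,C572A partner, 17.9% (19.9%) of RNF12 WT peaks had a REX1 and 22.4% (23.5%) an RNF12 H569A,C572A partner, and 18.0% (17.4%) of RNF12 H569A,C572A peaks had a REX1 and 24.6% (23.4%) an RNF12 WT partner. With summits within 100 bp, the share was 15.5% (23.7%) for REX1 with RNF12 H569A,C572A, 20.9% (32.4%) for RNF12 WT with RNF12 H569A,C572A, 27.9% (23.1%) for RNF12 H569A,C572A with REX1 and 21.3% (32.0%) with RNF12 WT. By the same rule it was 17.3% (28.4%) for REX1 with RNF12 WT and 28.4% (28.1%) for RNF12 WT with REX1. With a −log10 q of at least 5 in both lists, it was 11.1% (30.9%) for REX1 with RNF12 WT, 33.3% (45.8%) for REX1 with RNF12 H569A,C572A, 25.0% (38.8%) for RNF12 WT with REX1, 50% (57%) for RNF12 WT with RNF12 H569A,C572A, 26.9% (26.9%) for RNF12 H569A,C572A with REX1 and 17.3% (27.2%) with RNF12 WT. Without Dnmt3a, chosen after seeing the data, RNF12 WT with REX1 was 24.5% and RNF12 H569A,C572A with REX1 32.5%. With 100 bp around the summit, 4 RNF12 H569A,C572A summits held the REX1 motif. The cause of these changes was not tested. When −log10 q set the rank instead, 16 of 24 strongest peaks stayed within 5 percentile points and 8 moved further, among them the REX1 peak of Dnmt3l, to 79.6. With 1 library per list and unknown depth, absence of a peak does not show absence of binding.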
